A study of Homo sapiens with 6 samples.

Results

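The genes described here are 10 members of the pathway by which T cells read cytokines: the receptor chains IL7R, IL2RG, IL2RB and IL4R, the Janus kinases JAK1 and JAK3, the transcription factors STAT3, STAT5A and STAT5B, and the inhibitor SOCS1. They were chosen by gene name, and each gene had 1 probe set, so these 10 probe sets stand for 10 of 17687 genes measured. The RNA on the 6 Affymetrix arrays came from Jurkat cells, an established human line derived from T-ALL, a leukaemia of immature T cells. Both groups were grown in RPMI medium with 10% fetal bovine serum. For 3 arrays the cells were left in suspension over 3 h. For the other 3 they were mixed into bovine type I collagen at 1.7 mg/mL, left for 1 h while the gel set, and kept under warm medium for 2 h more; this group is called 3D. No cytokine, drug or genetic change is named in the labels for either group. All arrays thus describe 1 cell line, and the replicates, numbered 1 to 3 in each group and labelled biological, carry no word on what separated them, so p-values measure the spread between these samples only.

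As background, cytokines of the interleukin-2 family bind pairs or trios of receptor chains on the T cell surface. JAK1 and JAK3 sit on the inner tails of these chains, phosphorylate them and each other, and so create docking sites for STAT proteins, which are phosphorylated in turn, pair up and enter the nucleus to switch genes on. STAT targets include the SOCS genes, whose proteins bind and block the kinases. IL-7 signals keep developing T cells alive, and activating changes of this pathway occur in part of T-ALL. RNA arrays show transcript levels and not receptor density at the surface or phosphorylation.

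Expression is the deposited log2 value of a probe set, so a difference of 1 is 2-fold. Levels of different genes are not ranked here, since probe sets respond differently. The array medians lay between 5.55 and 5.64, and pairwise correlations between arrays over all genes between 0.971 and 0.991. All 13 T cell markers had a mean above 6, the limit used for dim genes, and 8 of 40 markers of other cell types did too, among them CD79A and BLK of B cells, named after their values were seen. Since levels of different probe sets are not comparable, these values do not separate T cells from other cells. The median difference over all genes was -0.02, with 52.6% of genes lower in 3D.

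None of the 10 genes passed the test for a difference between 3D and suspension. limma gave adjusted p-values from 0.511 for JAK3 to 0.989 for IL2RG, over all 17687 genes. At an adjusted p under 0.05, 0% of all genes passed. At an unadjusted p under 0.05 the members numbered 0 of 10, against 9.87% of all genes (1745). JAK3, STAT3 and SOCS1 had the lowest log2 differences, -0.36 ± 0.16 (SE), -0.39 ± 0.20 and -0.41 ± 0.26. STAT5B had the highest, 0.23 ± 0.17, and the other 6 lay between -0.15 and 0.12. The unadjusted 95% intervals of all 10 lay inside a 2-fold difference in either direction, the widest being that of SOCS1, from -0.99 to 0.16.

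**Figure D1:**
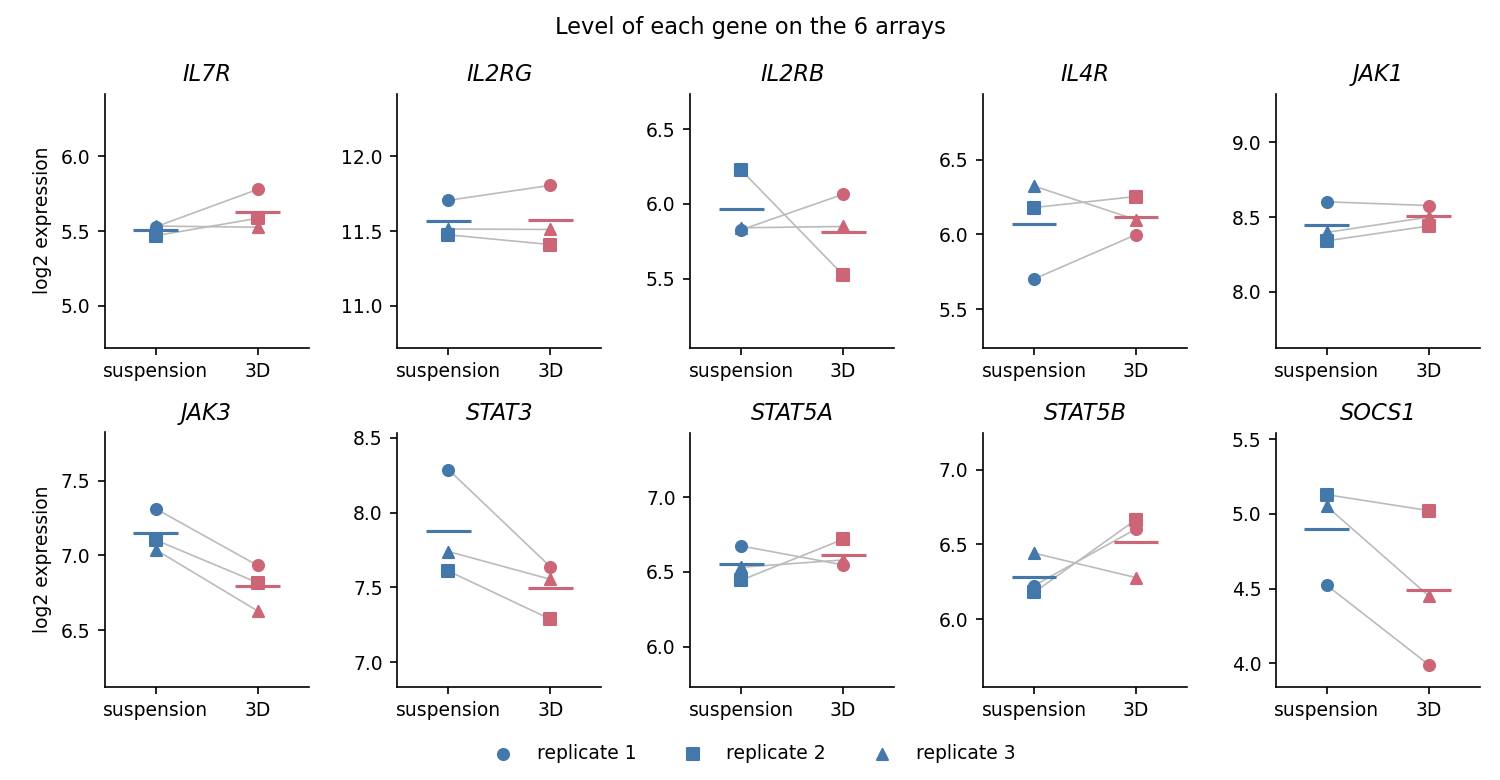
Log2 expression of the 10 genes (vertical axes, each spanning 1.7 log2 units around the gene's mean) on the suspension arrays (blue) and the 3D arrays (red). Marker shapes give the replicate number, grey lines join arrays of the same number and horizontal bars are group means of 3 arrays; the groups are apart for JAK3 and overlap for the other 9 genes.

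The 4 receptor chains had overlapping groups, and their differences ran from -0.15 to 0.12. IL7R, the alpha chain that gives the IL-7 receptor its specificity, measured 5.53, 5.47 and 5.53 in suspension (replicates 1 to 3, an order kept for every gene). In 3D it measured 5.78, 5.59 and 5.53. The 3D arrays of replicates 1 and 2 were the highest, the third lay among the suspension arrays, and the difference was 0.12 ± 0.15 (SE; limma adjusted p 0.812). IL2RG, the common gamma chain shared by the receptors for IL-2, IL-4, IL-7, IL-9, IL-15 and IL-21, measured 11.71, 11.47 and 11.51 in suspension and 11.81, 11.41 and 11.51 in 3D. Its groups covered nearly the same range, replicate 1 was the highest in both, and the difference was 0.01 ± 0.17, with an unadjusted 95% interval from -0.36 to 0.38.

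IL2RB, the beta chain of the IL-2 and IL-15 receptors, measured 5.83, 6.23 and 5.84 in suspension and 6.06, 5.52 and 5.85 in 3D. The 2 extremes were both of replicate 2, with 3D lower by 0.70 log2 in that pair, while the pairs of replicates 1 and 3 differed by 0.24 and 0.01. Without pair 2 the difference, -0.15 ± 0.19 (SE) over all arrays, turned to 0.12 in the blocked fit. IL4R, the alpha chain of the IL-4 receptor, measured 5.70, 6.18 and 6.32 in suspension and 5.997, 6.25 and 6.10 in 3D. All 3 values in 3D lay inside the suspension range, and the difference was 0.05 ± 0.19; it turned to -0.13 without suspension replicate 1, the lowest array for this gene. The group SD of IL4R was 0.33 in suspension and 0.13 in 3D (n = 3 each). IL7R and IL2RB had means over the 6 arrays of 5.57 and 5.89, under the limit of 6. The 40 markers of other cell types had a median mean of 4.23 and a 90th percentile of 7.02, so whether a level in this range is signal or background was not tested.

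Of the Janus kinases, JAK3 had groups that lay apart and JAK1 had groups that overlapped, and no test compared these genes. JAK3, which in T cells pairs with the common gamma chain, measured 7.31, 7.10 and 7.04 in suspension and 6.93, 6.82 and 6.63 in 3D. Every 3D array lay below every suspension array, which held for 1 of the 10 members and for 8.03% of all genes in this direction. The group means were 7.15 ± 0.14 (SD, n = 3) and 6.79 ± 0.15 (SD, n = 3), and the level in 3D was 0.780 of that in suspension (unadjusted 95% interval 0.607 to 1.00; limma adjusted p 0.511). By unadjusted p, 10.0% of all genes ranked before JAK3. JAK1, the kinase bound to the chains that recognise the ligand, measured 8.60, 8.34 and 8.40 in suspension and 8.58, 8.44 and 8.50 in 3D. These ranges overlapped, and the difference was 0.06 ± 0.16 (SE), inside an unadjusted interval of -0.28 to 0.40.

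STAT3, which transmits IL-6, IL-10 and IL-21 signals among others, measured 8.29, 7.61 and 7.74 in suspension and 7.64, 7.29 and 7.55 in 3D. Suspension replicate 1 stood above the other 5 arrays, and the remaining values of the groups touched, with suspension replicate 2 below 3D replicate 1. The difference was -0.39 ± 0.20 (SE; limma adjusted p 0.554) and -0.18 without suspension replicate 1. STAT5A, one of the STAT5 pair that carries IL-2 and IL-7 signals, measured 6.67, 6.44 and 6.53 in suspension and 6.55, 6.72 and 6.58 in 3D, a difference of 0.07 ± 0.15. Its closest relative STAT5B measured 6.22, 6.18 and 6.44 in suspension and 6.60, 6.67 and 6.28 in 3D. In 3D the arrays of replicates 1 and 2 were the highest, while 3D replicate 3 lay within the suspension range, and the difference was 0.23 ± 0.17 (adjusted p 0.655). STAT5A and STAT5B are similar in sequence, and probe sequences were not used here, so how far each probe set reads the other gene is uncertain.

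SOCS1, the inhibitor that binds JAK proteins, had a mean of 4.69, under the limit for dim genes. It measured 4.52, 5.13 and 5.05 in suspension and 3.99, 5.02 and 4.45 in 3D. The lowest array was 3D replicate 1, and 3D replicate 2 lay with the higher suspension arrays. The groups overlapped, and the spread in 3D was the largest of any member, at 4.49 ± 0.52 (SD, n = 3) against 4.90 ± 0.33 (SD, n = 3). The difference of -0.41 ± 0.26 (SE; limma adjusted p 0.607) reached -0.68 without 3D replicate 2 and was -0.16 without 3D replicate 1.

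**Figure D2:**
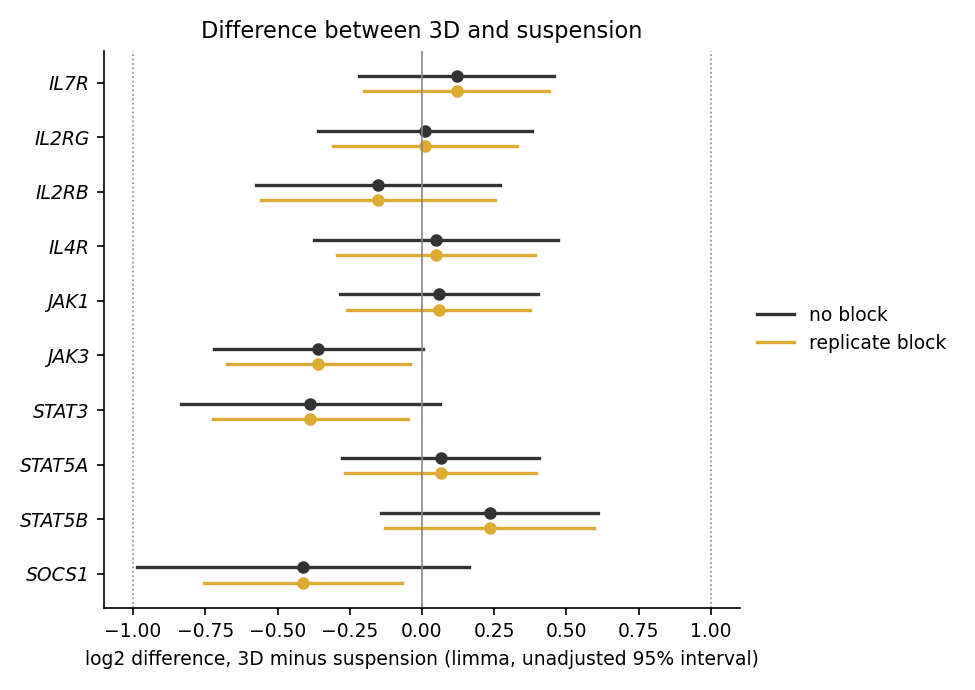
Log2 difference between 3D and suspension for each gene (points) with its unadjusted 95% interval from limma (horizontal lines), without a block (black) and blocked on replicate number (yellow); dotted lines mark a 2-fold difference. Without the block all 10 intervals hold 0, and with it those of JAK3, STAT3 and SOCS1 lie below 0 before adjustment over all genes.

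The replicate numbers were taken to pair the arrays, on a weak basis given with the processing. JAK3, STAT3 and SOCS1 were lower in 3D in each of the 3 pairs, by 0.38, 0.29 and 0.41 for JAK3, by 0.65, 0.32 and 0.19 for STAT3, and by 0.53, 0.11 and 0.60 for SOCS1. A lower value in all 3 pairs was found for 19.8% of all genes. No member was higher in all 3, and the share of all genes in that direction was not computed. With the replicate number as a block these 3 members had an unadjusted p under 0.05 (limma), 3 of 10 against 17.4% of all genes. Their adjusted p-values were 0.239, 0.235 and 0.219, and 0 of 10 members passed, where 0.0905% of all genes did (16). A further setting, chosen after seeing the data, combined the block with a floor of 6 on the mean; of its 8342 genes 14.4% passed (1199), and of its 7 members 0. The nearest were STAT3 at an adjusted p of 0.0625 and JAK3 at 0.0718 in limma. SOCS1 was too dim to enter. In this setting limma drew each gene's spread toward a spread shared by all genes, with 25.0 prior against 2 residual degrees of freedom. Its p-values therefore rest mostly on the shared spread.

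The 250 bases before the RefSeq gene start (GRCh38.p14, minus strand in each case) are given 5′ to 3′ for the members with the lowest log2 differences. These are JAK3 (chr19:17847983-17848232), STAT3 (chr17:42388443-42388692) and SOCS1 (chr16:11256205-11256454). IL2RG (chrX:71111578-71111827, minus strand) is given as the member with the smallest difference and the only one with a match to the forkhead site. Capitals mark matches to the motifs named after the sequences.
JAK3: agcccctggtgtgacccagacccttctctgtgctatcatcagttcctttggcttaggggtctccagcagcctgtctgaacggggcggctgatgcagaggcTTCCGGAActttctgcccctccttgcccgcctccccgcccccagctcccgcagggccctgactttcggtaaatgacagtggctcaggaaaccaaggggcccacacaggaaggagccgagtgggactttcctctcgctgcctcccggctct
STAT3: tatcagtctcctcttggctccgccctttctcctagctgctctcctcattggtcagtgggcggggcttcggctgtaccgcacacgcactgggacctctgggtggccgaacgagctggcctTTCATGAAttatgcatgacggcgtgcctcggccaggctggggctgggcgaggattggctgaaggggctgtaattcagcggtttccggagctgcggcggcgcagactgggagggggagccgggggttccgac
SOCS1: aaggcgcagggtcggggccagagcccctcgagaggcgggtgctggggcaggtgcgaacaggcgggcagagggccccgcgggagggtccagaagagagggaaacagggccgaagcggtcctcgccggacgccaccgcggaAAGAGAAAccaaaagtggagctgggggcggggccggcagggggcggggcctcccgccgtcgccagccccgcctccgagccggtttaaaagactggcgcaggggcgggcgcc
IL2RG: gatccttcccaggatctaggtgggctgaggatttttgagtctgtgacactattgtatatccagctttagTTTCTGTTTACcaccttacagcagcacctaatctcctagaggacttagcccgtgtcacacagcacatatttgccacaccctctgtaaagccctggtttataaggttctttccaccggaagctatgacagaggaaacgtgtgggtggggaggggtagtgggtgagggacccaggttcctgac

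Of the 10 genes 9 matched the RefSeq promoter table, with IL2RB missing, and windows at every listed start were searched on both strands. The STAT site TTCNNNGAA was in the windows of 0 of the 9 genes, against 8.09% of 27305 genes in the table. The forkhead site GTAAACA was in 1 of 9, IL2RG, against 3.66%. A pair of further motifs was searched after the windows had been read. Because of that order, their counts in these windows are no fair comparison with the shares of all genes. The inverted repeat TTCNNGAA, with 1 base less between the arms than the STAT site, was in 4 of 9 (IL7R, JAK1, JAK3 and STAT3) against 8.12%. It read TTCCGGAA in JAK3, 150 to 143 bases before the start, and TTCATGAA in STAT3, 131 to 124 bases before it. The core AANNGAAA of sites for interferon regulatory factors was in 3 of 9 (IL2RG, JAK1 and SOCS1) against 23.9%, and in IL2RG it overlapped the forkhead match. These are matches of letters, and binding was not measured. Matches to TTCNNGAA were also present before IL7R (difference 0.12) and at 1 of the listed starts of JAK1 (0.06). Which start these cells use was not measured, and a relation between motif and difference was not tested. GC made up 62.8% of the JAK3 window, 64.4% of that of STAT3, 74.0% of that of SOCS1 and 50% of that of IL2RG, with a median of 58.0% over 35116 windows.

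STAT5B, STAT5A and STAT3 lie next to each other on chromosome 17, and their differences were 0.23, 0.07 and -0.39 in that order. Of the 5 nearest measured genes on each side of STAT3, 5 were lower and 5 higher in 3D, with a median of 0.02. JAK3 lies on chromosome 19, whose 1256 measured genes had a median difference of -0.13. Of these genes 13.5% had a lower difference than JAK3. Of the 10 nearest measured genes 9 were lower in 3D, with a median of -0.11, among them MAP1S (-0.59) and ARRDC2 (-0.39), picked here after their values were seen. The neighbours of IL2RB on chromosome 22 were also lower in 9 of 10 cases, with a median of -0.27, beside a difference of -0.15 for IL2RB itself. Around the other members 5 or 6 of the 10 neighbours were lower. The part of such regional shifts in the JAK3 difference was not tested. Around SOCS1 on chromosome 16, 6 neighbours were lower and 4 higher, with a median of -0.06.

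**Figure D3:**
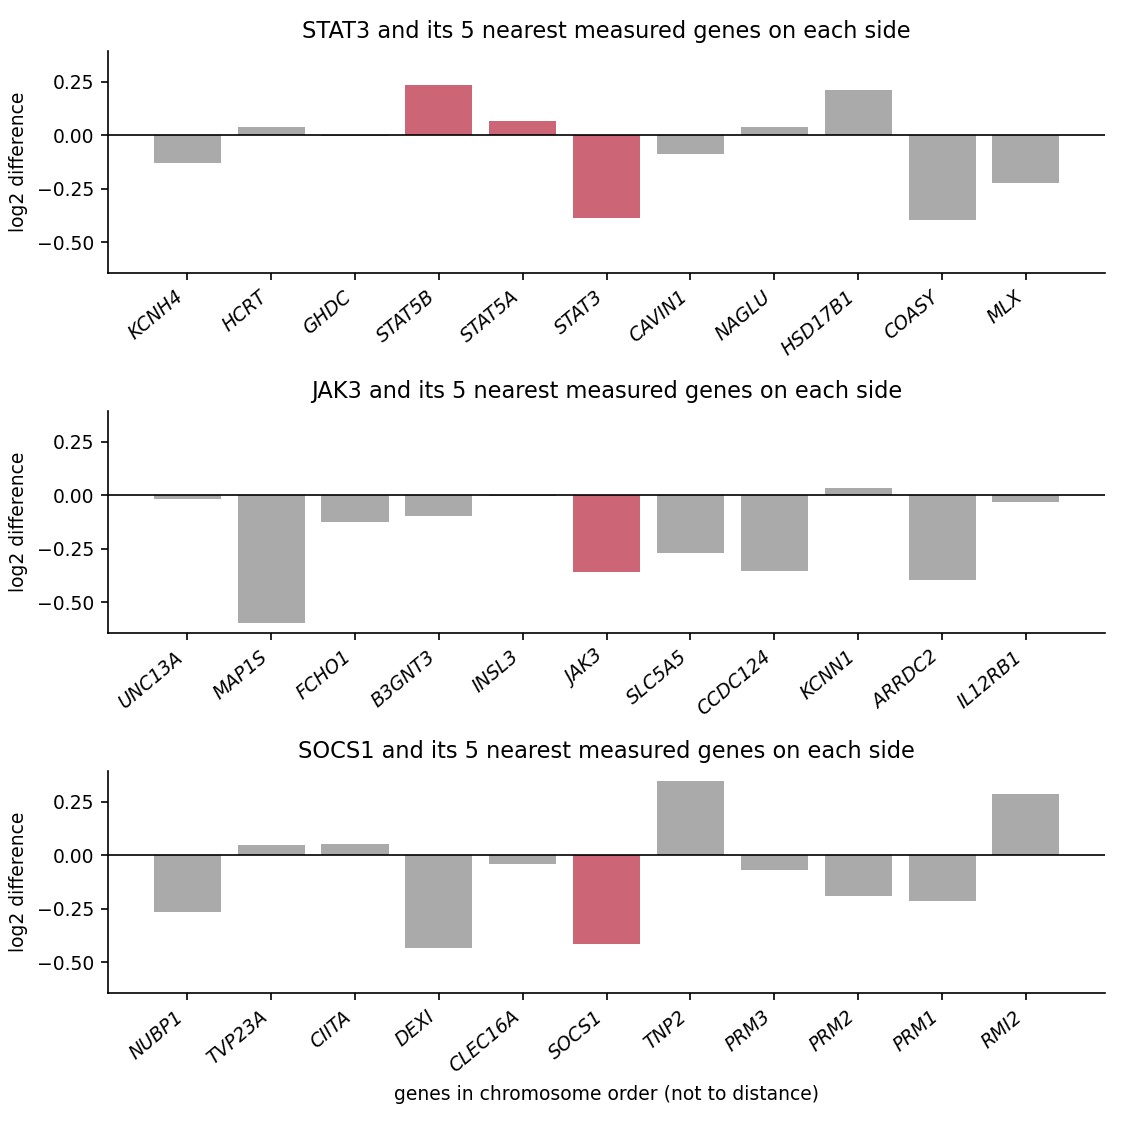
Log2 difference between 3D and suspension (vertical axes) for STAT3, JAK3 and SOCS1, each with the 5 nearest measured genes on either side in RefSeq order; members are red and other genes grey, and spacing does not show distance. Around JAK3 9 of 10 neighbours lie below 0, around STAT3 5 of 10 and around SOCS1 6 of 10.

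Across the 6 arrays, each member was set beside 106 other genes of the pathway lists by Pearson's r of the log2 values, as a description. JAK3 was most like NOTCH1 (r = 0.956) and STAT3 most like STAT6 (0.936). IL2RG was most like FOXO1 (0.957), STAT5B like PTPRC (0.908), STAT5A like IL7 (0.886) and SOCS1 like IL12RB2 (0.886). For IL4R it was NR3C1 (0.872), for JAK1 CBLB (0.862), for IL7R SOCS3 (0.861) and for IL2RB CSF2RA (0.754). Among the members themselves the highest r was that of JAK1 with IL2RG (0.806), followed by STAT3 with JAK3 (0.781), and the lowest that of STAT5A with IL2RB (-0.885). Arrays share their normalization and the difference between groups, and each r is the best of many over only 6 points. The partners IL7 (mean 2.35), CSF2RA (2.70), IL12RB2 (2.72), SOCS3 (4.58) and FOXO1 (4.80) were under the limit of 6 for dim genes. Whether their values are signal or background was not tested.

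The wider pathway was read from 7 lists, which held 97 measured genes besides the members. Of these 0 passed limma without the block and 0 with it, and 11 had an unadjusted p under 0.05, or 11.3% against the 9.87% of all genes. Their median size of difference was 0.17, the same as that of all genes to 2 decimals; that of the members was 0.14. The median signed difference of the members was 0.03, with 6 higher and 4 lower.

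STAT4, the factor through which IL-12 acts in T cells, had the largest difference of the pathway. It measured 4.61, 4.30 and 5.39 in suspension and 5.39, 5.74 and 6.28 in 3D, so that the groups met at suspension replicate 3 and 3D replicate 1. The difference was 1.03 ± 0.29 (SE; limma adjusted p 0.380). Only 0.13% of all genes differed by at least 1 log2, and none of the 10 members did. Blocking on replicate number brought limma's adjusted p to 0.0507, where 16 of 17687 genes passed. Leaving out pairs 1, 2 or 3 as well gave 0.0233, 0.0434 or 0.0309, where 21, 150 or 36 genes passed. With a pair out the fit keeps 1 residual degree of freedom and takes the spread mostly from all genes. The smaller p-values there are therefore no firmer. Without the block limma's adjusted p was 0.2736 or more in every setting. The mean of STAT4 was 5.29, below the limit for dim genes.

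Of the other JAK and STAT genes, STAT6, the factor of IL-4 signalling, measured 6.98, 6.41 and 6.57 in suspension and 6.39, 6.20 and 6.12 in 3D. The groups did not overlap, which held in this direction for 8.03% of all genes. Suspension replicate 1 was the highest, as for STAT3, and the difference was -0.42 ± 0.19 (SE, limma adjusted p 0.505). TYK2 and JAK2, the remaining Janus kinases, had differences of -0.13 ± 0.19 and 0.15 ± 0.16. Over the 4 measured genes of this list the median was 0.01.

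The other cytokine receptor chains had a median difference of -0.02 over 31 genes, with 14 higher and 17 lower and 0 at an unadjusted p under 0.05 (limma). Their smallest p-values belonged to IL3RA, a chain of the IL-3 receptor (0.30 ± 0.16 SE), IL6ST, the shared chain gp130 (0.38 ± 0.25), CSF2RA, of the receptor for GM-CSF (-0.22 ± 0.15), and IFNGR2, of the interferon gamma receptor (-0.21 ± 0.18). The 7 measured ligands were all dim, with means from 2.35 to 5.31, and had a median of -0.02. IL4 stood at -0.34 ± 0.15, IL13 at -0.34 ± 0.18, IL2 at 0.32 ± 0.19 and IL7 at 0.18 ± 0.16, with limma adjusted p-values from 0.505 to 0.716.

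Genes that restrain the pathway had a median difference of 0.13 over 19 genes, with 12 higher and 7 lower in 3D. PIAS3, a nuclear protein that holds back STAT3, had -0.49 ± 0.18 (SE), SOCS4 0.43 ± 0.19, PIAS2 0.32 ± 0.16 and PIAS4 -0.31 ± 0.16, so members of the PIAS family lay on both sides of 0. Targets of STAT5 and STAT3 had a median of -0.13 over 20 genes, with 6 higher and 14 lower. JUNB had -0.77 ± 0.17, MYC -0.55 ± 0.16, CCND3, the cyclin D3 gene, -0.43 ± 0.16, and HIF1A 0.41 ± 0.19. Limma adjusted p-values of these 8 genes ran from 0.341 to 0.557. These targets answer to many other signals too, and STAT activity was not measured.

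Among 8 regulators of IL7R transcription the median was 0.02. NOTCH1 had -0.42 ± 0.19 (SE), GABPA 0.35 ± 0.24, NR3C1, the glucocorticoid receptor gene, 0.46 ± 0.32, and ETS1 0.23 ± 0.16. The signal arms beside STAT, the PI3 kinase and RAS genes, had the lowest median of these lists, -0.22 over 12 genes, with 4 higher and 8 lower. PIK3CD, the delta catalytic subunit of PI3 kinase, measured 7.22, 7.01 and 6.78 in suspension and 6.11, 6.68 and 6.38 in 3D. Its groups did not overlap, and the difference was -0.61 ± 0.19 (limma adjusted p 0.399). Every 3D array lay below every suspension array for 5 of the 12 genes of this list and for 8.03% of all genes. The reverse held for 1 of the 12, and the share of all genes in that direction was not computed. SOS1, which loads RAS with GTP, had 0.37 ± 0.15, AKT2 -0.31 ± 0.16 and MAPK3, the ERK1 gene, -0.28 ± 0.16.

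Under the block plus the floor of 6, where 14.4% of all genes passed, 9 of 53 pathway genes passed (17.0%). These were SOCS4 and NR3C1, higher in 3D, and PIK3CD, MYC, PIAS3, CCND3, NOTCH1, IL27RA and STAT6, lower in 3D, with limma adjusted p-values from 0.00890 to 0.0433; IL27RA was named after its values were seen. With 1 pair left out the counts were 3 of 53 (5.66%) without pair 1 against 5.49% of all genes, 12 (22.6%) without pair 2 against 17.5%, and 1 (1.89%), PIK3CD, without pair 3 against 4.87%. Of the 7 members in these fits 0 passed in each. Without pair 1 limma set 43.0 prior degrees of freedom, for the spread shared by all genes, against 1 residual. Without pair 2 or 3 the prior was infinite, so every gene was given the same spread. The p-values of these fits thus measure little or nothing of each gene's own spread.

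**Figure D4:**
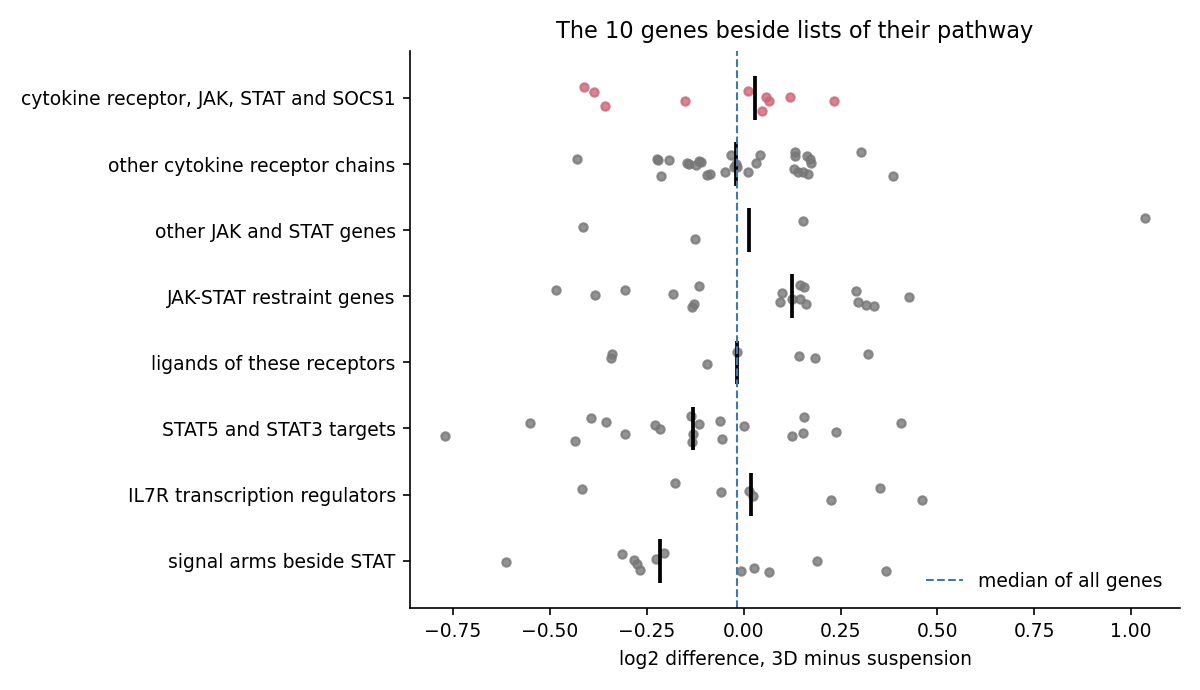
Log2 difference between 3D and suspension (horizontal axis) of each gene in the member list (red) and the 7 pathway lists (grey), with list medians (black bars) and the median of all genes, -0.02 (dashed line). Points are single genes, spread vertically at random within a list; STAT4 lies farthest to the right at 1.03 and JUNB farthest to the left at -0.77.

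The 13 T cell markers had a median difference of -0.21, with 9 lower and 4 higher. Their summed log2 level ran from 119.08 to 120.92 in suspension and from 116.23 to 120.38 in 3D. Of this list CD3D, CD3E, CD3G, CD2 and LCK had differences of -0.31, -0.08, 0.03, -0.21 and -0.28, and 0 of the 13 passed limma. The groups were apart, lower in 3D, for 3 of the 13, against 8.03% of all genes. CD247, the zeta chain of the T cell receptor complex (-0.52 ± 0.15 SE, groups apart), and BCL11B (-0.44 ± 0.24) had the lowest differences of this list. Both were named after their values were seen. Under the block plus the floor of 6 these were the 2 of 13 that passed, with limma adjusted p-values of 0.0133 and 0.0457, against 14.4% of all genes. Markers of other cell types also lay lower in 3D, 28 of 40 with a median of -0.09. All arrays came from 1 cell line, and 32 of these 40 markers had a mean under 6, the limit for dim genes. The medians were -0.24 for B cell markers (4 of 5 lower), -0.22 for stromal (6 of 7), -0.13 for NK (4 of 5), -0.09 for erythroid (5 of 5), -0.04 for myeloid (5 of 9) and 0.01 for endothelial or epithelial markers (4 of 9). The part of these shifts in the values of JAK3 and STAT3 was not tested. In bulk samples like these, fewer cells with a transcript and less of it per cell cannot be told apart.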

How the data were processed

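The deposited log2 values, 1 column per array, were made by the authors with RMA and the Transcriptome Analysis Console, per the submitters' processing notes; versions, probe annotation and genome build are not given in the sources used here. As background, RMA corrects background, puts all arrays on 1 distribution and summarises probes, which shrinks differences of dim probe sets. Detection flags were not used. The platform table named 17709 of 21448 probe sets, and all matched RefSeq gene identifiers. Genes with several probe sets (20) kept that of highest mean, leaving 17687.

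Differences were tested over all genes with lmFit and eBayes of limma 3.58.1 under R 4.3.3, two-sided, with Benjamini-Hochberg adjustment, a threshold of 0.05, no block and no filter; its script was tested on simulated data. Alternatives were a replicate block, a mean of at least 6, further scalings, weights, priors and left-out arrays. Members and lists were chosen with earlier results of these data known, so none is independent support. Named genes were all members, up to 4 genes of smallest p per list each member's most similar gene, and CD3D, CD3E, CD3G, CD2 and LCK among the T cell markers. IL27RA, MAP1S, ARRDC2, CD247, BCL11B, CD79A and BLK fall outside this rule, picked with their values known.

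The titles number replicates 1 to 3 in both groups. Deviations from the group mean correlated at 0.521, 0.120 and 0.337 between arrays of equal number. All were over the limit of 0.1, so the numbers were taken as pairs. However, suspension 2 correlated better with 3D replicate 3 (0.230), and 3D replicate 2 better with suspension 3 (0.149). Those values are over the limit too. The limit therefore does not single out pairing by number, and the blocked results rest on the numbers in the titles. Plots used matplotlib 3.10.9 and Python 3.11.15.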

Additional observations from a re-analysis of the deposited data

How the results depend on the processing

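No alternative moved a member across the threshold: 0 of 10 were called in all 20 alternatives, including those that kept only the 7 members of mean at or above 6. JAK3 (-0.43 to -0.28), STAT3 (-0.52 to -0.18), SOCS1 (-0.68 to -0.16), STAT5B (0.11 to 0.43), IL7R (0.0454 to 0.18) and JAK1 (0.0036 to 0.14) kept their direction in every alternative that held them. The differences of the other 4 turned sign in some, and the cause was not tested. IL2RG stood at -0.0687 after quantile normalization once more and at -0.0173 with array weights, and with arrays or pairs left out it ran from -0.104 to 0.0937. IL4R stood at -0.0103 with array weights and ran from -0.13 to 0.19 with arrays or pairs left out, IL2RB from -0.35 to 0.12 and STAT5A from -0.0390 to 0.161. The count of all genes called was 0 without the block, 16 with the replicate block, and 1199 under the block plus a floor of 6 on the mean, a setting chosen after seeing the data; with arrays or pairs left out it ran from 0 to 1457. List medians that moved by more than their spread did so with arrays or pairs left out: other receptor chains ran from -0.0910 to 0.16, restraint genes from -0.0248 to 0.17, STAT5 and STAT3 targets from -0.34 to -0.10, and signal arms from -0.24 to -0.12. Fewer arrays, and in some settings fewer genes, enter these fits. The number of arrays, 3 a group, limits the precision.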
